A study of Mus musculus with 42 samples.

Results

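H3K27ac after 18 h of lipopolysaccharide (LPS) was compared with H3K27ac after 1 h of LPS in wild-type (WT) bone marrow-derived macrophages (BMDMs), with 3 ChIP-seq libraries per time taken from 42 libraries in the series. Cells came from the bone marrow of male C57Bl6/J mice of 6 to 12 weeks, grew into macrophages for 7 days in medium conditioned by L929 cells, and received 100 ng/ml LPS for either time, so an effect of time in LPS and an effect of time in culture cannot be told apart. WT mice were littermates of whole-body Nur77 (Nr4a1) knockout (KO) mice, which were bred from a CMV promoter-driven Cre line and a floxed Nr4a1 line. By the methods the KO mice no longer carried Cre, while the genotype label of their libraries reads "cre". The other libraries used beside the 6 were WT BMDMs without LPS (0 h), KO BMDMs at 1 and 18 h, RNA polymerase II (Pol II) ChIP of WT BMDMs at 1 and 18 h, and the WT inputs of 1 and 18 h. The methods speak of biological replicates, but nothing states that the 3 libraries of a time came from different mice or cultures, so the p-values measure the spread between these libraries, which may be technical. H3K27ac-enriched regions of the 6 libraries were merged where they overlapped, which gave 53619 regions. Of these, 11234 lay within 2500 bp of the start of a protein-coding gene and are called promoter regions, and the other 42385 are called distal regions. Values are normalized tags, that is ChIP fragments in a region per 10 M tags (M, mega) of the library. A value of 0 means that the search found no region there in that library, not that no fragment was present.

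Acetylation of histone H3 at lysine 27 is placed by the acetyltransferases p300 and CBP on nucleosomes beside active promoters and enhancers, and is removed when these elements fall silent. LPS binds TLR4 on macrophages, which first activates NF-kB and AP-1 factors at the genes of cytokines, chemokines and their inhibitors, and then interferon-beta, whose receptor activates STAT2 and IRF9 at interferon-stimulated genes. In resting macrophages the lineage factor PU.1 keeps enhancers of identity, lysosome and lipid-handling genes open.

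The sequences printed here are those of promoters and distal regions that the results turn on. Promoters are the 250 bases before the RefSeq start of each gene (GRCm38.p6, the assembly of mm10, RefSeq), of which 9181 of the 11743 genes tested had an entry; of the Ctsd promoter 30 bases are shown. Capitals mark matches on either strand to letters chosen for a factor after the data had been seen: GGGANTTTC for NF-kB, GAAANNGAA for the interferon-stimulated response element (ISRE), TCACGTGA for the TFEB element known as CLEAR and TGANTCA for AP-1. None of these letters contains another, but they can overlap in part, and each sequence was searched for all 4. Cxcl1 (chr5:90890995-90891244, plus strand) and Cxcl2 (chr5:90903649-90903898, plus strand) stand for early chemokines whose promoters lost H3K27ac.
Cxcl1: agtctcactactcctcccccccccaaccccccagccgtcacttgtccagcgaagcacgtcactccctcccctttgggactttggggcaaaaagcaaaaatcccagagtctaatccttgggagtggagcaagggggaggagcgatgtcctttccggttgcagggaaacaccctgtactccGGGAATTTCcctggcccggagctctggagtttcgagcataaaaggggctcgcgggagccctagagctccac
Cxcl2: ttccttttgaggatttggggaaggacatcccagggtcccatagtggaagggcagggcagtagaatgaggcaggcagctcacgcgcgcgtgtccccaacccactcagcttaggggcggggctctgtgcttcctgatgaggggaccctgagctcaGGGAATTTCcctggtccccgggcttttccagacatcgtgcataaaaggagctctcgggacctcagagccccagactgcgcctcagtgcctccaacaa
Ifit1 (chr19:34640639-34640888, plus strand) and Cxcl10 (chr5:92348890-92349139, minus strand) stand for interferon-response promoters that were already high at 1 h, and Oas3 (chr5:120777660-120777909, minus strand) for those that rose further.
Ifit1: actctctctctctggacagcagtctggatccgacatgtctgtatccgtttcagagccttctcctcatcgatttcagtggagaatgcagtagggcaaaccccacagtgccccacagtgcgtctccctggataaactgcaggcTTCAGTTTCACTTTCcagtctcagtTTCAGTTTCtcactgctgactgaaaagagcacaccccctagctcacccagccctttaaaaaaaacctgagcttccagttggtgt
Cxcl10: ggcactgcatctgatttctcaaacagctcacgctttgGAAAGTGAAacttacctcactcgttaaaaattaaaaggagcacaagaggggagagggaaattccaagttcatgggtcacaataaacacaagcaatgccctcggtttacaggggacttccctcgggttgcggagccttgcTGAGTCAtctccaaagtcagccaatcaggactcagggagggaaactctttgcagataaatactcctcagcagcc
Oas3: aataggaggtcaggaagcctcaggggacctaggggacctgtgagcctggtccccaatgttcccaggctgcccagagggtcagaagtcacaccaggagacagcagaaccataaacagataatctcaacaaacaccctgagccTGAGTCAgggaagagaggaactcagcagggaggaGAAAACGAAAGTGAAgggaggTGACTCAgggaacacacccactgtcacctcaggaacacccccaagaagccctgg
Ctsd (chr7:142387908-142387937, minus strand) stands for lysosome promoters that were low at 1 h and rose.
Ctsd: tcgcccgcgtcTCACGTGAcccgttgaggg
Qpct and Plcb4 are the nearest genes of 2 distal regions with a very large loss, of which 120 bases around the AP-1 match nearest to the centre are given on the plus strand (chr17:79096912-79097031 and chr2:135822347-135822466, GRCm38).
Qpct: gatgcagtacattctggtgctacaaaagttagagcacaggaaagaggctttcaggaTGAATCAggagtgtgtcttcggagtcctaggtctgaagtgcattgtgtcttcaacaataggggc
Plcb4: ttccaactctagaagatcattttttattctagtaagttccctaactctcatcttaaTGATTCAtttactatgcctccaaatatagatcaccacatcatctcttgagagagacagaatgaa

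The libraries held 13.5 to 20.9 M tags at 1 h and 15.0 to 31.1 M at 18 h. They listed 41686 ± 676 regions at 1 h and 39409 ± 2594 at 18 h (mean ± SD, n = 3). The ranges of the times overlapped (exact two-sided permutation test, p = 0.3). With 1 library left out in turn, the difference (18 h minus 1 h) ran from -3675 to -1113. The regions took 80.7% ± 1.18 of the tags at 1 h and 86.9% ± 1.14 at 18 h (SD, n = 3), without overlap of the times (exact permutation p = 0.1, the smallest that 3 against 3 libraries can give). Without the regions that overlap an input region the direction turned, with 3.12% at 1 h and 2.81% at 18 h. Libraries of the same time were alike over the 25751 regions found in all 6 (Pearson r of 0.987 to 0.993 across regions), and libraries of different times were less so (r of 0.807 to 0.821); regions are not independent replicates. Of the merged regions, 71.3% overlapped a region that the same search listed in a WT input.

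By the definition used throughout (limma on log2(normalized tags + 10), Benjamini-Hochberg adjusted p under 0.05 and an absolute log2 change over 1), 16927 of the 43038 regions tested (39.3%) differed between the times, 8377 higher at 18 h (19.5%) and 8550 lower (19.9%). Of 32391 distal regions tested, 14498 (44.8%) were called, 7215 higher (22.3%) and 7283 lower (22.5%), and of 10647 promoter regions 2429 (22.8%), 1162 higher (10.9%) and 1267 lower (11.9%). With 50 added in place of 10 the shares called were 15.6% of distal and 11.4% of promoter regions. The median log2 change over all regions tested was 0.02. All libraries are scaled to 10 M tags, so this median cannot show a rise or fall of H3K27ac as a whole. Without regions that overlap an input region, 155 promoter regions were called higher and 409 lower. On the promoters of single genes, defined as the 2500 bp on either side of the gene start, 2131 of 11743 genes tested were called (18.1%), 1005 higher (8.56%) and 1126 lower (9.59%). With the adjusted p alone, 68.5% of regions and 67.9% of gene promoters passed, and the values of the times did not overlap at 70.9% of regions and 72.2% of gene promoters, so the change of more than 1 on the log2 scale and not the test set most of the calls.

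**Figure D1:**
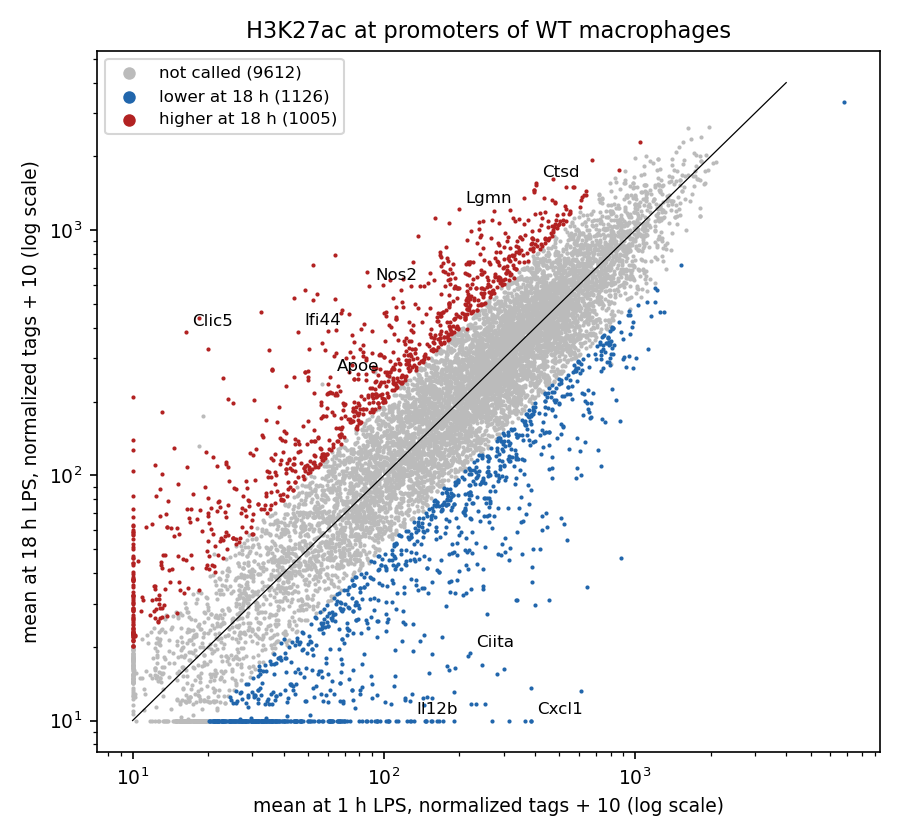
Mean H3K27ac of each tested gene promoter at 1 h (x axis) and 18 h (y axis) of LPS in WT BMDMs, as normalized tags plus 10 on log scales, n = 3 libraries per time. Red points are the 1005 promoters called higher at 18 h, blue points the 1126 called lower, grey points the 9612 not called, and the line marks equal values.

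Levels of called regions at 1 and 18 h follow from the call itself and are given as a description. Distal regions called higher had a median of 8.9 normalized tags at 1 h and 61.0 at 18 h, and those lost went from a median of 46.5 to 2.73, while distal regions not called had medians of 22.4 and 22.7. Gained distal regions lay closer to a gene start, with a median distance of 25.6 kb, than lost ones, with 42.4 kb, and 28.8 kb was the median of those not called. Among the regions called higher, 2447, of which 2309 distal, were found in every library of 18 h and in none of 1 h, and among those called lower 3439, of which 3141 distal, were found in every library of 1 h and in none of 18 h.

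The libraries without LPS placed these gains and losses on a time line. Of the distal regions higher at 18 h, 73.8% were found in at least 2 of the 3 libraries at 0 h, with a median of 28.4 normalized tags, and for 48.9% the 0 h level was closer to that of 18 h than to that of 1 h on the log2 scale of the fit, which holds for every such count. Of those lower at 18 h, 70.9% were found at 0 h, with a median of 23.4, and for 51.7% the 0 h level was closer to 18 h. Of the distal regions not called, 76.4% were found at 0 h, with a median of 28.5, so being found at 0 h did not set the called regions apart. Promoter regions higher at 18 h had medians of 167, 88.6 and 271 at 0, 1 and 18 h, and those lower 76.4, 128 and 31.7. For gene promoters, the 0 h level was nearer to that of 18 h for 624 of the 1005 higher (62.1%) and for 546 of the 1126 lower (48.5%). The called regions were thus a mix of elements that moved away from the resting level at 18 h and elements that moved back to it.

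**Figure D2:**
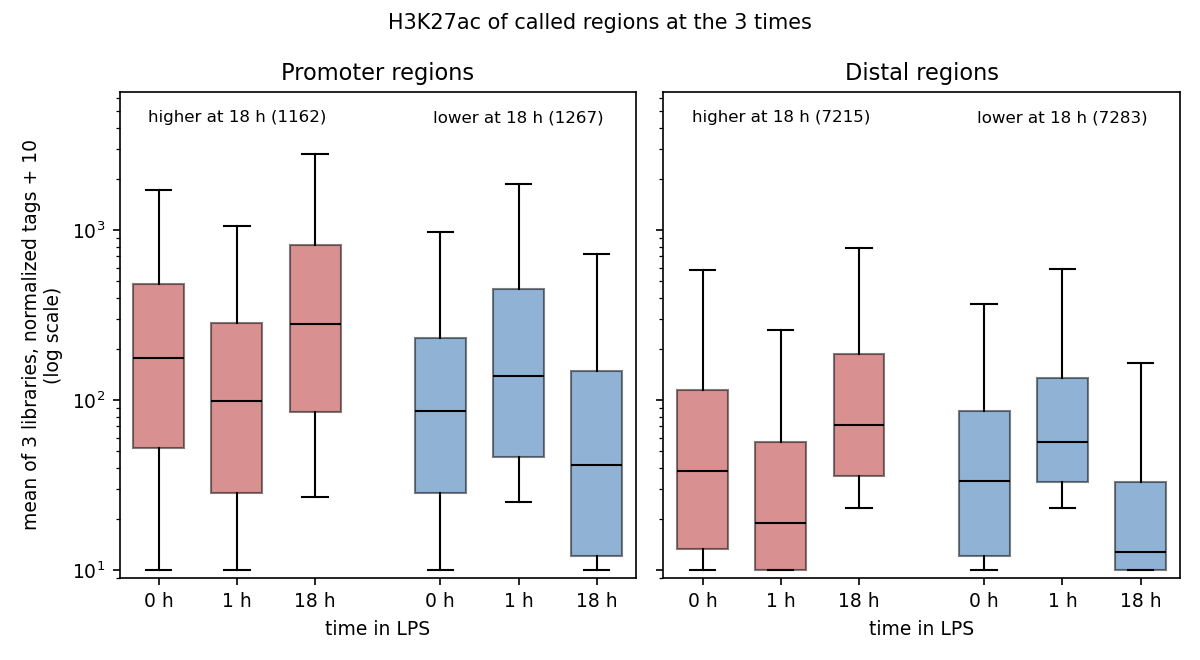
H3K27ac of called promoter regions (left) and distal regions (right) at 0, 1 and 18 h of LPS, as the mean of 3 WT libraries in normalized tags plus 10 on a log scale. Boxes give quartiles with the median and whiskers the 5th to 95th percentiles of regions higher (red) or lower (blue) at 18 h than at 1 h, and the medians at 0 h lie between those of 1 and 18 h in all 4 classes.

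Promoters of early LPS genes, which NF-kB and AP-1 switch on within minutes, were split. Of 26 tested, 4 fell, 1 rose and 21 were not called, with a median log2 change of -0.16 where the median of all gene promoters was near 0. Over all gene promoters tested, 9.59% were lower and 8.56% higher. The chemokine genes Cxcl1 and Cxcl2, whose products attract neutrophils, lost most. At the Cxcl1 promoter the libraries had 136, 511 and 476 normalized tags at 1 h and 0 in each at 18 h (adjusted p = 9.2e-06), against 12.1 ± 1.87 (SD, n = 3) at 0 h. At Cxcl2 the values were 592, 511 and 476 at 1 h and 56.9, 31 and 45.7 at 18 h, a log2 change of -3.32 ± 0.17 (SE, adjusted p = 6e-07). In neither gene did the times overlap. In replicates 2 and 3 at 1 h a broad region spanned both promoters, which is why their values there are equal.

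Nfkbiz, which encodes the inducible co-regulator IkappaB-zeta, had 747, 837 and 817 at 1 h and 206, 246 and 192 at 18 h (log2 change -1.86 ± 0.09, adjusted p = 5.9e-07), where its 0 h level of 198 ± 13.9 (SD, n = 3) was close to that of 18 h. Egr2, an immediate-early zinc finger factor, had 370, 296 and 303 at 1 h and 75.9, 93 and 78.2 at 18 h (log2 change -1.85 ± 0.11, adjusted p = 1.3e-06), below its level at 0 h of 269 ± 6.85 (SD, n = 3). The riser was Plk3, a stress-responsive kinase, with 61.1, 41.7 and 61.1 at 1 h against 153, 145 and 139 at 18 h (log2 change 1.28 ± 0.13, adjusted p = 3.5e-05). For none of these did the libraries of the times overlap. The call of Plk3 was lost with 50 added in place of 10 and in a window of 1000 bp on either side of the start.

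Other early genes kept most of their H3K27ac. The Tnf promoter had 1155, 1225 and 1193 normalized tags at 1 h and 928, 870 and 1172 at 18 h, with overlap between the times and a log2 change of -0.28 ± 0.11 (SE, adjusted p = 0.044). Ccl3, a chemokine gene that shares a broad region with Ccl4, had 999, 1008 and 1056 at 1 h and 835, 792 and 836 at 18 h (log2 change -0.31 ± 0.06, adjusted p = 0.0014). Tnfaip3, which encodes the deubiquitinase A20, had 1228, 1258 and 1280 against 979, 967 and 986 (log2 change -0.36 ± 0.06, adjusted p = 0.0005). These passed the adjusted p, and Ccl3 and Tnfaip3 did not overlap between times, but all stayed well under the change needed for a call and above their 0 h levels of 599 ± 96.7, 531 ± 140 and 416 ± 6.83 (SD, n = 3). Nfkbia, the inhibitor that holds NF-kB in the cytoplasm, had 1052, 842 and 897 at 1 h and 1149, 1143 and 1146 at 18 h (log2 change 0.30 ± 0.08, adjusted p = 0.011), which is also under the threshold.

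Late LPS genes, which need new protein synthesis or chromatin opening, went in both directions. Of 22 tested, 4 rose, 6 fell and 12 were not called (all gene promoters: 8.56% higher, 9.59% lower), with a median log2 change of -0.04. Nos2, the inducible nitric oxide synthase, was listed at 0 without LPS, had 93.7, 67.7 and 70.9 normalized tags at 1 h and 598, 577 and 575 at 18 h (log2 change 2.77 ± 0.11, adjusted p = 1.8e-07). Cfb, the complement factor B gene, went from 24.1, 19.6 and 18 to 192, 200 and 187 (log2 change 2.73 ± 0.10, adjusted p = 1.8e-07). Lcn2, whose product binds bacterial siderophores, was listed at 0, 0 and 9.34 at 1 h and at 83.5, 94.8 and 97.1 at 18 h (log2 change 3.03 ± 0.25, adjusted p = 9.6e-06). Saa3, an acute-phase gene, had 114, 88.8 and 116 against 263, 303 and 256 (log2 change 1.29 ± 0.11, adjusted p = 1.1e-05). All 4 had their highest level at 18 h, with no overlap between 1 and 18 h, and the call of Saa3 was lost in the window of 1000 bp and at the stricter density of tags.

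The late genes that fell were mostly cytokines. Il12b, the p40 subunit of interleukin-12 and interleukin-23, had 97.7, 128 and 125 normalized tags at 1 h and was listed at 0 in each library at 18 h (adjusted p = 1.9e-07). Il12a, the partner subunit p35, had 38, 19.6 and 20.1 at 1 h, and Ccl22, a chemokine for T cells, 37.4, 41.7 and 40.7, and both were listed at 0 at 18 h (limma adjusted p = 0.00011 and 2.6e-06). Il1b had 515, 424 and 476 at 1 h and 128, 155 and 211 at 18 h (log2 change -1.48 ± 0.15, adjusted p = 3.7e-05). Il27 had 1192, 1107 and 1023 against 398, 558 and 543 (log2 change -1.15 ± 0.12, adjusted p = 4.8e-05), and its log2 change was -0.99 without replicate 1 of 18 h. Serpinb2, a plasminogen activator inhibitor, had 63.5, 76.4 and 70.4 against 23.7, 30.4 and 20.3 (log2 change -1.21 ± 0.14, adjusted p = 6.7e-05). With 50 added, Il12a, Ccl22 and Serpinb2 were not called, nor was Il12a in the window of 1000 bp. Il6, in contrast, overlapped between the times, with 218, 232 and 220 before and 236, 221 and 231 after (log2 change 0.04 ± 0.06, adjusted p = 0.61).

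**Figure D3:**
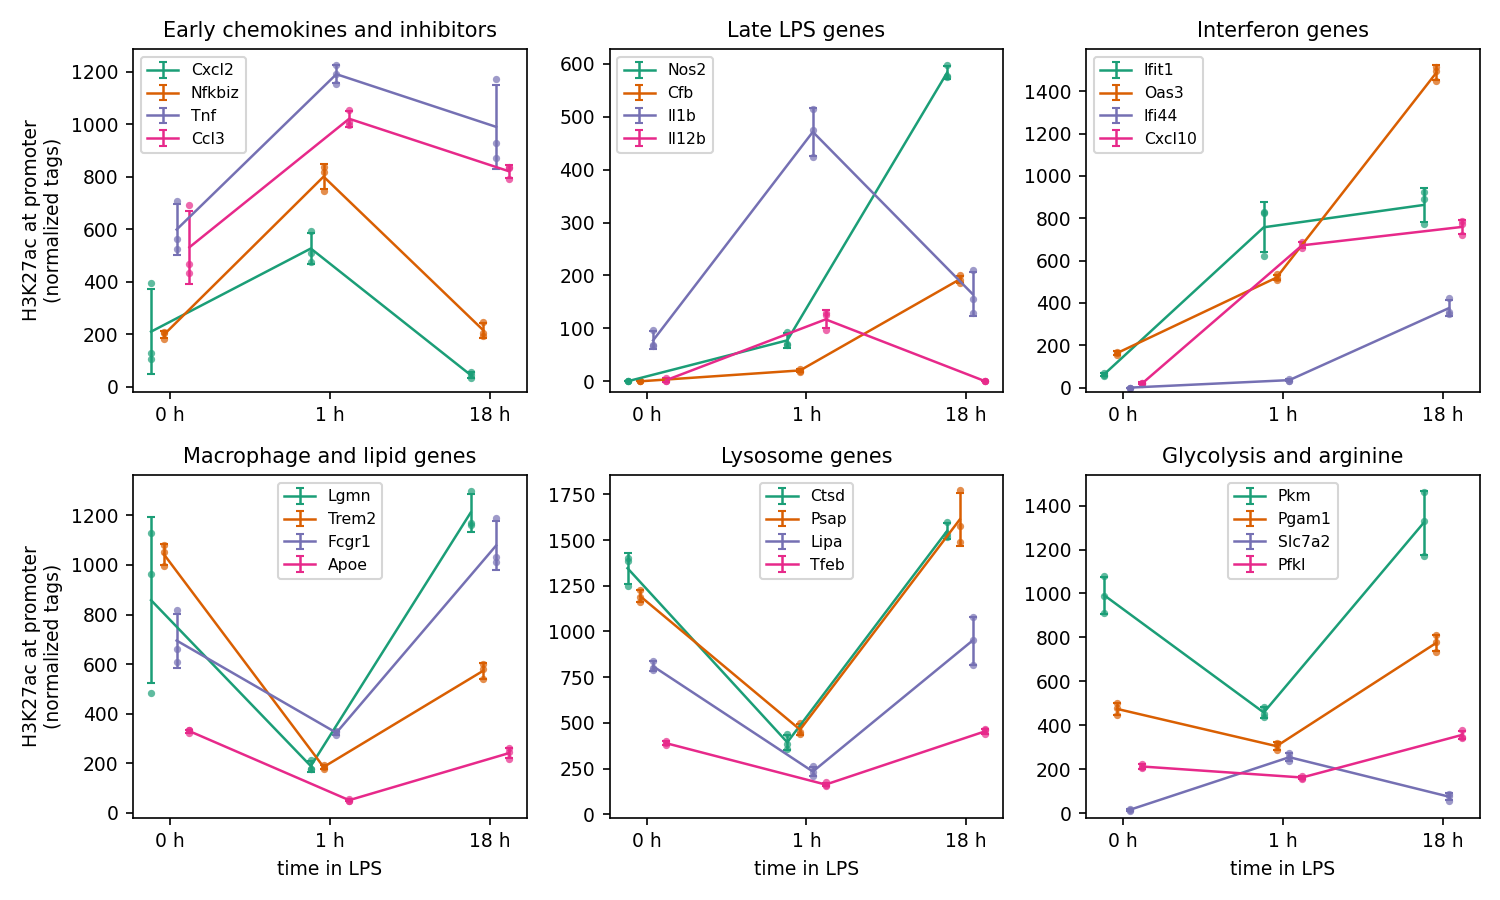
H3K27ac at the promoters of 24 genes in 6 groups at 0, 1 and 18 h of LPS in WT BMDMs, in normalized tags on linear axes that start near 0 (0, 1 and 18 h are equally spaced). Dots are the 3 libraries and bars the mean ± SD; early cytokine genes peak at 1 h, Nos2, Cfb, Oas3 and Ifi44 are highest at 18 h, and the lysosome genes shown are lowest at 1 h.

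Of 11 genes of the NF-kB family and its inhibitors, none rose, 2 fell and 9 were not called, with a median log2 change of -0.20. That share of calls was close to the 18.1% over all gene promoters. Beside Nfkbiz, Nfkbie, the gene of IkappaB-epsilon, fell from 1112, 1114 and 1209 normalized tags to 432, 433 and 446 (log2 change -1.37 ± 0.06, adjusted p = 2.9e-07). Of 18 genes of the AP-1 and small Maf families, 1 rose and 2 fell (18.1% of all gene promoters were called), with a median of 0.01. Jun had 504, 473 and 482 at 1 h and 1059, 1049 and 1044 at 18 h (log2 change 1.10 ± 0.06, adjusted p = 6.3e-07), which is the level it had without LPS, 1024 ± 32.5 (SD, n = 3). Fosl2 had 733, 700 and 707 against 325, 347 and 331 (log2 change -1.07 ± 0.06, adjusted p = 7.5e-07). Maff had 398, 287 and 308 against 98.1, 111 and 112 (log2 change -1.53 ± 0.12, adjusted p = 6.1e-06). The times did not overlap for any of these genes. Fosl2 was not called with 50 added or in the window of 1000 bp, nor Jun after quantile normalization.

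Feedback regulators, which limit TLR4, cytokine and MAP kinase signals, had the lowest median of the large lists, -0.59. Of 23 tested, 5 fell, none rose and 18 were not called, where 9.59% of all gene promoters were lower and 8.56% higher. Cish, an inhibitor of STAT5 signalling, had 675, 655 and 626 normalized tags at 1 h and 144, 163 and 179 at 18 h (log2 change -1.95 ± 0.08, adjusted p = 2.5e-07). Nr4a2, the nuclear receptor Nurr1, had 197, 172 and 198 against 34.3, 52.1 and 54.3 (log2 change -1.82 ± 0.15, adjusted p = 7.6e-06). Il1rn, the interleukin-1 receptor antagonist, had 339, 237 and 333 against 118, 151 and 117 (log2 change -1.17 ± 0.15, adjusted p = 0.00011). Dusp4, a MAP kinase phosphatase, had 366, 365 and 412 against 176, 182 and 169 (log2 change -1.07 ± 0.07, adjusted p = 2.4e-06). Spry1, an inhibitor of receptor tyrosine kinase signals, had 22.2, 31.4 and 34.5 at 1 h and was listed at 0 at 18 h (adjusted p = 2.1e-05). Each of the 5 had its times apart without overlap, but Il1rn, Dusp4 and Spry1 were not called with 50 added. Nor were Il1rn and Dusp4 in the window of 1000 bp, or Il1rn at the stricter density of tags. Nr4a1 itself, which encodes Nur77, was low at both times, with 32.2, 45.3 and 18.9 at 1 h and 14.3, 6.33 and 22.1 at 18 h, and its values overlapped (log2 change -0.80 ± 0.30, adjusted p = 0.039).

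Of 35 interferon-response promoters tested, 7 rose between 1 and 18 h, none fell and 28 were not called, where 8.56% of all gene promoters were higher and 9.59% lower. The median log2 change was 0.38. Ifit1, whose product binds viral RNA, had 62.4 ± 6.19 normalized tags at 0 h, 823, 621 and 828 at 1 h, then 926, 889 and 773 at 18 h, with overlap of the LPS times (log2 change 0.19 ± 0.12, adjusted p = 0.17). Cxcl10, a chemokine for activated T cells, had 20.7 ± 3.78 at 0 h, 687, 672 and 658 at 1 h, then 785, 772 and 721 at 18 h (log2 change 0.17 ± 0.06, adjusted p = 0.028). Isg15, a ubiquitin-like modifier, had 1057, 1072 and 1122 against 1425, 1400 and 1488 (log2 change 0.40 ± 0.06, adjusted p = 0.00041). For Cxcl10 and Isg15 all values of 18 h lay above those of 1 h, but by less than a call needs.

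The 7 risers included antiviral enzymes and guanosine triphosphatases. Oas3, a sensor of double-stranded RNA, had 509, 516 and 535 normalized tags at 1 h and 1516, 1449 and 1498 at 18 h (log2 change 1.50 ± 0.06, adjusted p = 1.8e-07). Iigp1, a GTPase that acts on pathogen vacuoles, had 24.1, 15.3 and 27.5 against 450, 464 and 441 (log2 change 3.86 ± 0.14, adjusted p = 1.4e-07). Ifi44 had 33.7, 42.1 and 30.7 against 421, 358 and 349 (log2 change 3.09 ± 0.11, adjusted p = 1.6e-07). Both were close to or at 0 without LPS, so they gained late. Ifi47, a related GTPase, had 459 ± 29.4 at 0 h, 371, 357 and 363 at 1 h, then 1112, 1088 and 1085 at 18 h (log2 change 1.56 ± 0.05, adjusted p = 1.2e-07). Ifit2, Oasl1 and Isg20 had log2 changes of 1.45, 1.07 and 1.04, and those of Oasl1 and Isg20 were under 1 after quantile normalization. That of Isg20 was also under 1 with 50 added and in the window of 1000 bp. Of the distal regions nearest to the listed interferon genes, 18 of 44 were higher and 6 lower, where 22.3% and 22.5% of all tested distal regions were.

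Letters of the ISRE were present in the RefSeq promoters (300 bases, from 250 before to 50 after the start) of 17 of 27 listed interferon genes with an entry, against 7.55% of all tested promoters. They stood in 9.85% of promoters called higher and in 7.01% of those called lower. With 1 more A, the usual longer form, these numbers were 16 of 27, 3.38%, 5.13% and 2.22%. In the sequences above, Ifit1 and Cxcl10, which were already high at 1 h, and Oas3, which rose, all hold a match, and Cxcl10 and Oas3 also hold AP-1 letters. The NF-kB letters stood in 1.02% of all promoters and in 3 of 21 promoters of early LPS genes. The CLEAR letters stood in 1.96% of all and in 3 of 15 of lysosome genes, and in 1 of 21 of early LPS genes. They stood in 1.48% of promoters called higher, in 1.29% of those called lower and in 2.08% of those not called. The AP-1 letters stood in 4.9% of all, in 7 of 27 of interferon genes, in 1 of 21 of early LPS genes, in 2 of 15 of lysosome genes, in 6.61% of promoters called higher and in 5.61% of those called lower. A match is a description of letters and not a bound site.

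Some macrophage identity genes gained H3K27ac between 1 and 18 h. Of 22 tested, 5 rose, none fell and 17 were not called, where 8.56% of all gene promoters were higher and 9.59% lower. The median log2 change was the highest among the lists, 0.77, and all 5 had a 0 h level nearer to 18 h than to 1 h on the log2 scale; in normalized tags Fcgr1 was nearer to 1 h. Lgmn, a lysosomal endopeptidase, had 214, 177 and 175 normalized tags at 1 h and 1299, 1163 and 1169 at 18 h (log2 change 2.62 ± 0.09, adjusted p = 1.2e-07), against 858 ± 334 (SD, n = 3) at 0 h. Fcgr1, the high-affinity IgG receptor, had 327, 313 and 329 against 1011, 1034 and 1191 (log2 change 1.70 ± 0.07, adjusted p = 2.7e-07). Trem2, a lipid receptor, had 176, 192 and 187 against 581, 601 and 538 (log2 change 1.58 ± 0.07, adjusted p = 2.4e-07), still below its 0 h level of 1043 ± 42.6 (SD, n = 3). Itgam, which encodes CD11b, had 184, 172 and 205 against 544, 581 and 589 (log2 change 1.56 ± 0.07, adjusted p = 4.7e-07). No replicate values of these genes overlapped between the times.

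Other members of the identity list differed in level and direction. With the adjusted p alone, 15 of the 22 were higher at 18 h and 2 lower. Cd14 had 866, 1046 and 1088 normalized tags at 1 h and 550, 558 and 519 at 18 h (log2 change -0.86 ± 0.09, not called). Cd33 had 120, 145 and 132 against 71.5, 73.3 and 58.8 (log2 change -0.87 ± 0.11, not called). Cx3cr1 had 12.2, 17.5 and 0 at 1 h and was listed at 0 at 18 h. Spi1, which encodes PU.1, had 1630, 1649 and 1836 normalized tags at 1 h and 2071, 1899 and 2195 at 18 h (log2 change 0.27 ± 0.08, adjusted p = 0.02). Csf1r, the receptor for macrophage colony-stimulating factor, had 503, 428 and 428 against 882, 808 and 814 (log2 change 0.87 ± 0.08, adjusted p = 1.5e-05). Of 13 markers of T, B and NK cells, 9 were listed at 0 in all 6 libraries, among them Cd3e and Ncr1. The sum over the list was 119 to 127 at 1 h and 334 to 369.8 at 18 h. Nearly all of it came from Ms4a1, a B cell marker, with 109, 106 and 116 against 325, 363 and 339 (log2 change 1.55 ± 0.07, adjusted p = 3.7e-07). Of 14 granulocyte and progenitor markers, 9 were at 0 throughout, among them Ly6g, Mpo and Kit, with sums of 93.5 to 115 and 140 to 158. Klf1 was the 1 member of that list that rose, with 50.7, 33.9 and 28 against 84.1, 93.1 and 91.3 (log2 change 1.09 ± 0.17, adjusted p = 0.00038; 0.95 without replicate 3 of 1 h). Dendritic cell markers summed to 818 to 865 at 1 h and 426 to 464 at 18 h, with Flt3 at 0. Zbtb46 fell from 33.3, 41.7 and 53.4 to 0 in each library (adjusted p = 6.3e-06). Klf1 and Zbtb46 were not called with 50 added, nor Klf1 in the window of 1000 bp. Stromal markers summed to 1100 to 1147 and 1006 to 1156, with Col1a1 and Epcam at 0. Kdr rose from 5.24, 6.27 and 31.3 to 90.3, 75.9 and 89.4 (log2 change 2.13 ± 0.34, adjusted p = 0.0005), which was not called at the stricter density of tags. Pdgfrb fell from 42, 62.6 and 48.6 to 0 in each (adjusted p = 2.7e-06). In these bulk samples fewer cells of a type and less H3K27ac per cell cannot be told apart, and the part of other cells in the changes was not tested.

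Lysosome genes, whose products degrade engulfed material, rose or were not called. Of 18 tested, 4 rose, none fell and 14 were not called, with a median log2 change of 0.49, where 8.56% of all gene promoters were higher and 9.59% lower. Of 29 distal regions nearest to them 17 were higher and 1 lower, against 22.3% and 22.5% of all tested distal regions. Ctsd, the protease cathepsin D, had 1346 ± 84 normalized tags (SD, n = 3) at 0 h, 438, 384 and 358 at 1 h, then 1597, 1533 and 1520 at 18 h (log2 change 1.96 ± 0.08, adjusted p = 2.1e-07). Lipa, lysosomal acid lipase, had 262, 229 and 209 against 1081, 952 and 819 (log2 change 1.98 ± 0.11, adjusted p = 1.1e-06). Psap, the precursor of the saposins, had 496, 442 and 450 against 1774, 1489 and 1577 (log2 change 1.78 ± 0.08, adjusted p = 3.7e-07). Tfeb, which encodes the factor that drives lysosome genes through CLEAR elements, had 154, 158 and 174 against 458, 464 and 440 (log2 change 1.43 ± 0.07, adjusted p = 3.8e-07). The 0 h levels of Lipa, Psap and Tfeb were 810 ± 27, 1193 ± 33.1 and 389 ± 11.6 (SD, n = 3), each nearer to 18 h. In none of the 4 genes did 1 and 18 h overlap.

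Lipid efflux genes, targets of the oxysterol receptor LXR among them, rose or were not called as well. Of 11 tested, 4 rose, none fell and 7 were not called, against 8.56% higher and 9.59% lower over all gene promoters, with a median log2 change of 0.48. Apoe, which encodes the apolipoprotein that takes up cellular cholesterol, had 330 ± 6.05 normalized tags (SD, n = 3) at 0 h, 48.5, 49.9 and 55.1 at 1 h, then 244, 261 and 218 at 18 h (log2 change 2.03 ± 0.09, adjusted p = 3.5e-07). Scd2, a fatty acid desaturase, had 70.7, 60.6 and 63.7 against 392, 345 and 354 (log2 change 2.32 ± 0.08, adjusted p = 1.4e-07). Pltp, a phospholipid transfer protein, had 398, 452 and 429 against 887, 949 and 889 (log2 change 1.07 ± 0.07, adjusted p = 1.8e-06). Npc1, a lysosomal cholesterol exporter, was at the threshold, with 101, 114 and 118 against 241, 236 and 227 (log2 change 1.01 ± 0.08, adjusted p = 5.5e-06; 0.96 without replicate 1 of 1 h). The times of these 4 genes did not overlap, but Npc1 was not called with 50 added, in the window of 1000 bp or after centring, nor Pltp after quantile normalization. The 15 sterol synthesis genes tested had a median log2 change of -0.21.

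Glycolysis and arginine genes had a median log2 change of 0.59, with 6 of 16 higher, 2 lower and 8 not called, where all gene promoters had 8.56% higher and 9.59% lower. Pkm, pyruvate kinase, had 486, 438 and 452 normalized tags at 1 h and 1461, 1172 and 1329 at 18 h (log2 change 1.50 ± 0.09, adjusted p = 1.3e-06). Pgam1, phosphoglycerate mutase, had 313, 287 and 318 against 810, 736 and 781 (log2 change 1.31 ± 0.07, adjusted p = 5.9e-07). Pfkl and Pgk1, 2 more enzymes of the pathway, had log2 changes of 1.08 and 1.05, and lactate dehydrogenase Ldha 1.02 (0.92 without replicate 3 of 1 h), and these 3 were not called with 50 added. Nor were Pfkl and Pgk1 in the window of 1000 bp, Pgk1 after quantile normalization or Ldha after centring. Slc7a2, an arginine transporter, had 16.2 ± 5.35 (SD, n = 3) at 0 h, 239, 273 and 255 at 1 h, then 90.1, 57.8 and 80.4 at 18 h (log2 change -1.64 ± 0.14, adjusted p = 9.9e-06). None of these values overlapped between 1 and 18 h.

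MHC class II genes, which present peptides to CD4+ T cells, had a median log2 change of -0.53, with 2 of 7 lower and none higher, where 9.59% and 8.56% of all gene promoters were. Ciita, their master co-activator, had 39.6 ± 5.95 normalized tags (SD, n = 3) at 0 h, 206, 224 and 202 at 1 h, then 17.3, 0 and 9.11 at 18 h (log2 change -3.67 ± 0.31, adjusted p = 9.8e-06). H2-Ab1 had 38.1, 63.5 and 37.4 against 15.3, 11.1 and 18.8 (log2 change -1.15 ± 0.21, adjusted p = 0.00099; -0.94 without replicate 2 of 1 h). The invariant chain gene Cd74 had 351, 355 and 435 against 207, 189 and 206 (log2 change -0.88 ± 0.09, adjusted p = 3.3e-05, not called). Of 14 genes of MHC class I and peptide processing, only the chaperone gene Calr rose, with 328, 329 and 297 against 934, 797 and 602 (log2 change 1.24 ± 0.14, adjusted p = 5.7e-05), and the median was 0.28. Among 14 actin and SRF target genes, Tpm4, a tropomyosin, fell from 844, 986 and 913 to 285, 251 and 264 (log2 change -1.74 ± 0.08, adjusted p = 3e-07). Tagln2 fell from 877, 949 and 963 to 424, 433 and 472 (log2 change -1.05 ± 0.07, adjusted p = 2.1e-06), and the other 12 were not called. Of 23 genes of DNA replication and mitosis, E2f1 (log2 change 1.06) and Rrm1 (1.07; 0.98 without replicate 3 of 1 h) were higher and Tyms (-1.15) lower. Of 8 reference genes, Gapdh, also an enzyme of glycolysis, rose from 518, 436 and 422 to 1016, 1083 and 988 (log2 change 1.15 ± 0.08, adjusted p = 4.6e-06) and the other 7 were not called. With 50 added, H2-Ab1, Tagln2, E2f1, Rrm1 and Tyms were not called. Nor were H2-Ab1, E2f1, Rrm1 and Gapdh in the window of 1000 bp, or H2-Ab1 and Tyms after quantile normalization.

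**Figure D4:**
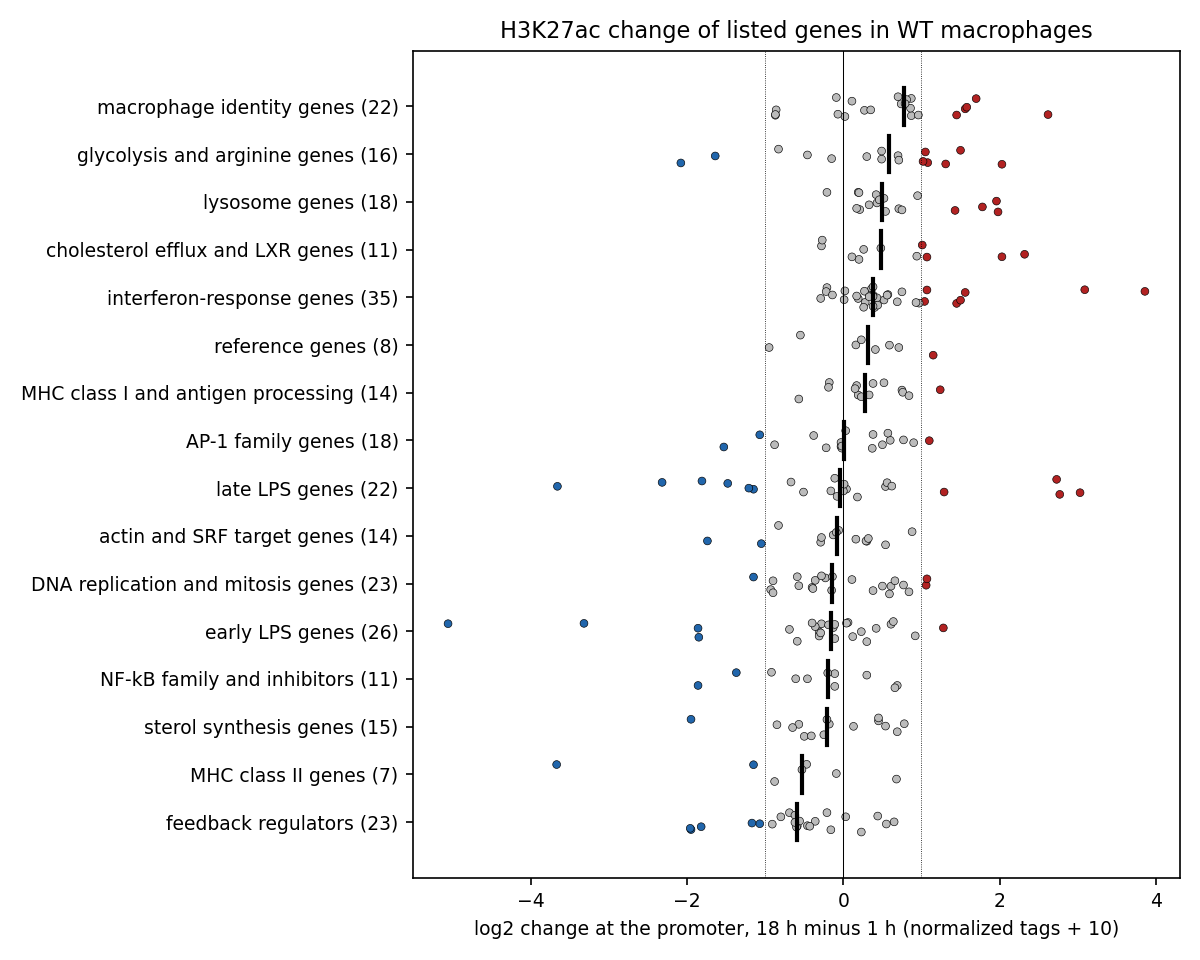
Log2 change of H3K27ac from 1 to 18 h of LPS at the promoters of listed genes, on normalized tags plus 10, for lists with at least 7 tested genes (number in brackets), sorted by their median (black bar). Red points were called higher and blue lower, dotted lines mark changes of 1 and -1, points of genes listed at 0 at a time depend on the added 10, and medians run from -0.59 for feedback regulators to 0.77 for macrophage identity genes.

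Among called gene promoters without overlap of the times, Ly6a, which encodes the surface protein Sca-1, had the largest fitted gain with 10 added. Its values were 0, 14.3 and 11 normalized tags at 1 h and 490, 486 and 307 at 18 h (log2 change 4.64 ± 0.32, adjusted p = 3.3e-06). At Clic5, a chloride intracellular channel gene, the values were 9.63, 9.27 and 0 against 445, 332 and 347 (log2 change 4.61 ± 0.25, adjusted p = 9.4e-07). Ms4a4d followed with 116, 2.09 and 9.1 against 775, 731 and 626 (log2 change 4.55 ± 0.71, adjusted p = 0.00045), where replicate 1 of 1 h stood above the other two. Serpina3g, a serine protease inhibitor gene, was listed at 0 at 1 h and at 194, 209 and 194 at 18 h (adjusted p = 8e-08). Ankmy1 had 8.46, 7.35 and 13.9 against 371, 242 and 340 (log2 change 4.03 ± 0.18, adjusted p = 3.2e-07). That the times did not overlap was a condition for picking these 5, and 72.2% of all gene promoters met it. Beside Cxcl1, the largest fitted losses were at E230025N22Rik, with 866, 455 and 471 at 1 h and 0, 0 and 9.69 at 18 h (log2 change -5.53 ± 0.31, adjusted p = 1.1e-06). Next came Gprc5c (364, 359 and 405), Tmem39a (429, 235 and 398) and Popdc2 (235, 269 and 415), which were all listed at 0 at 18 h (adjusted p = 5.2e-08, 2e-07 and 1.8e-07). Of these, Gprc5c and E230025N22Rik already carried 208 ± 12.5 and 234 ± 57.5 (SD, n = 3) at 0 h, whereas Tmem39a was listed at 0.

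Among whole promoter regions, a region of 8651 bp at Clic5 (chr17:44185805-44194456, its centre in an intron) had 542, 566 and 581 normalized tags at 18 h against 9.63, 9.27 and 0 at 1 h (log2 change 5.20 ± 0.25, adjusted p = 8.2e-07). A region at Naip1, an inflammasome receptor gene (chr13:100447942-100455275), went from 48.9, 32.4 and 34.7 to 848, 872 and 791 (log2 change 4.14 ± 0.12, adjusted p = 9e-08). A region of 15234 bp at Bcl2a1c (chr9:114322736-114337970), of a family of survival genes, went from 640, 680 and 683 to 0, 7.53 and 11.1 (log2 change -5.45 ± 0.25, adjusted p = 6.6e-07). The region at Il34 (chr8:110805399-110814555), the second ligand of the Csf1r receptor, had 408, 422 and 437 at 1 h and 0, 6.63 and 0 at 18 h (log2 change -5.19 ± 0.20, adjusted p = 2.9e-07) and was listed at 0 without LPS. That at Lad1 (chr1:135811403-135819444) was listed at 0 without LPS too, with 310, 407 and 347 at 1 h and 0 in each at 18 h (adjusted p = 4.1e-08). Those at Il34 and Lad1 were therefore found at 1 h and hardly or not at all at the other times.

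The distal regions with the largest fitted gains, picked among calls without overlap of the times, were all listed at 0 in the 3 libraries of 1 h. The strongest lay 47.7 kb from the start of Prdx6, a peroxiredoxin gene (chr1:161298954-161303679, intergenic), with 416, 456 and 425 normalized tags at 18 h (adjusted p = 1.5e-08) and 27.1, 24 and 31.6 at 0 h. A region 42.0 kb from the start of Nos2 (chr11:78871842-78878784, intergenic) had 342, 314 and 321 at 18 h (adjusted p = 2.2e-08) and was listed at 0 at 0 h and 1 h, so that locus gained H3K27ac at its promoter and at a distance. The others were nearest to Chac2 (chr11:31076042-31079773, in an intron of Asb3; 376, 415 and 383), to the cathepsin H gene Ctsh (chr9:90001236-90007306, in an intron of Rasgrf1; 348, 312 and 309) and to Usp50 (chr2:126801476-126808752, in an intron of Trpm7; 319, 327 and 281), and all 3 were listed at 0 at 0 h too.

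Among calls without overlap of the times, the largest fitted log2 loss was at a distal element of 17612 bp (chr17:79088583-79106195, intergenic). It lay 36.7 kb from the start of Qpct, which encodes glutaminyl cyclase. It had 711, 683 and 719 normalized tags at 0 h, 1873, 1802 and 1813 at 1 h, then 8.98, 11.7 and 8.35 at 18 h (log2 change -6.55 ± 0.08, adjusted p = 8.7e-09). Thus it gained within 1 h and lost nearly all H3K27ac by 18 h, below its resting level. A region in an intron of Plcb4 (chr2:135818729-135826975) had 209, 213 and 180 at 0 h, 535, 539 and 519 at 1 h and 0 in each at 18 h (adjusted p = 9.6e-09). Regions nearest to Abcb5 (chr12:119022245-119032231; 605, 635 and 572 at 1 h and 0 at 18 h), 4930558K02Rik (chr1:162160536-162168412, in an intron of Dnm3; 708, 744 and 719 against 9.98, 0 and 9.63) and Stt3b (chr9:115484271-115493642; 529, 492 and 512 against 0, 0 and 5.94) were also high at 1 h and at or near 0 at 18 h.

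The genes with the most called distal regions nearest to them were picked by that number, and all tested distal regions had 22.3% higher and 22.5% lower. In all, 6539 of the 9694 genes nearest to a tested distal region were nearest to a called one, and 1194 to called ones of both directions. Nrp1, the co-receptor neuropilin-1, was nearest to 46 tested distal regions, of which 17 were higher and 5 lower, a share of calls close to the 44.8% over all distal regions. The 17 together had 1533 normalized tags at 1 h and 6956 at 18 h (means over 3 libraries), while its promoter had a log2 change of 1.22. Zfp704 had 15 of 21 higher and none lower, and Gm826 14 of 19 and none, while Nars2 had 13 of 23 higher and 1 lower and Tbl1xr1 13 of 29 higher and 3 lower. Zeb2, a factor that keeps macrophage identity, had 38 of 68 lower and 2 higher. Those 38 had 2326 normalized tags at 0 h, 6002 at 1 h and 838 at 18 h. Cited2, a co-regulator that binds p300 and CBP, had 35 of 62 lower and 5 higher, from 6077 to 694 over the 35, and Klf6, a zinc finger factor, had 27 of 58 lower and 2 higher, from 2838 to 456 over the 27. The promoters of these 3 genes hardly moved, with log2 changes of 0.11, 0.06 and 0.06 that were not called. Around Adgrl2, an adhesion receptor gene, 29 of 45 distal regions were lower and 1 higher, and the promoter fell as well (log2 change -3.90). Around Hdac9, a class IIa histone deacetylase gene, 23 of 34 were lower with its promoter listed at 0 at both times. The distances reached 1543 kb at Zeb2, so the nearest gene need not be the one a region acts on.

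For the listed genes, promoters and nearest distal regions were counted side by side. Of 189 distal regions nearest to early LPS genes, 65 were lower and 11 higher, against 4 and 1 of 26 promoters. For the macrophage identity genes, 48 of 156 distal regions were lower and 27 higher, although 5 promoters rose and none fell. Around the NF-kB genes 22 of 46 were lower and 2 higher, and around the glycolysis and arginine genes 25 of 86 were higher and 9 lower. For genes whose promoter was called higher, 40.8% of 2325 nearest distal regions were higher and 8.17% lower, and for genes whose promoter was called lower, 7.95% of 3220 were higher and 44.3% lower, where 22.3% and 22.5% of all tested distal regions were higher and lower.

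AP-1 letters, as in the Qpct and Plcb4 regions above, stood in the central 1000 bases of 43.5% of distal regions that lost H3K27ac, of 37.1% of those that gained and of 39.1% of all tested. In promoter regions the order was the other way, with 23.8% of those lost, 26.5% of those gained and 20.8% of all. The NF-kB letters stood in 6.14%, 3.55% and 4.5% of distal regions and in 6.16%, 3.53% and 3.79% of promoter regions. In distal regions the ISRE letters were in 37.1%, 35.7% and 36.4%, the CLEAR letters in 0.947%, 0.901% and 0.92%, and GAGGAAGT, a form of the PU.1 site, in 13.5%, 13.7% and 13.5%. With 1 more base the NF-kB shares of distal regions were 2.58%, 0.998% and 1.62%, and the ISRE shares 19.9%, 20.5% and 19.9%, so the order of lost and gained regions for the ISRE turned with the length of the letters. The GC content of these windows had medians of 43.7% for lost, 44.9% for gained and 44.5% for all distal regions, and of 53%, 48.8% and 54.1% for promoter regions. The part of GC content in these shares was not tested. The shares are a description of the windows, which cover a part of most regions.

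Pol II at the genes, from separate libraries of the same genotype and times, was set beside H3K27ac. Pol II values are normalized tags from 500 bp before the start to 500 bp past the end of a gene. Of 12902 genes tested for Pol II, 6723 were called (52.1%), 5519 higher (42.8%) and 1204 lower (9.33%), with a median log2 change of 0.81. After centring on the median, 5220 were called (40.5%), 2369 higher (18.4%) and 2851 lower (22.1%). Of 944 genes with a promoter called higher for H3K27ac and a Pol II value, Pol II was called higher for 839 and lower for 6 (median log2 change 2.40; centred 1.52, with 644 higher and 22 lower). Of 959 with a promoter called lower, 65 were higher and 480 lower (24 and 722 after centring, with a centred median of -1.88). Among the 9278 genes with a promoter not called, the median was 0.78, close to that of all genes.

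At 4 early genes whose promoter H3K27ac was not called, Pol II fell. Tnf went from 12594 ± 481 to 2610 ± 59.8 normalized tags of Pol II (SD, n = 3; log2 change -2.27, adjusted p = 7e-09). Ccl3 went from 5076 ± 720 to 666 ± 4.58 (log2 change -2.90, adjusted p = 1.8e-07) and Tnfaip3 went from 20309 ± 139 to 2734 ± 89.5 (log2 change -2.89, adjusted p = 1.4e-09). Nfkbia went from 9957 ± 296 to 2546 ± 32.2 (log2 change -1.96, adjusted p = 6.3e-09). Over the early LPS list, Pol II was lower for 14 of 27 genes and higher for 1 (23 lower and 1 higher after centring), with a median of -1.13, where 9.33% of all genes were lower and 42.8% higher (22.1% and 18.4% after centring). At Cxcl2 and Il1b, where H3K27ac fell, Pol II fell too. Cxcl2 went from 3201 ± 206 to 60.6 ± 3.12 (log2 change -5.51, adjusted p = 3.4e-09), and Il1b went from 7503 ± 191 to 241 ± 6.82 (log2 change -4.90, adjusted p = 1.3e-09).

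Among 18 lysosome genes Pol II was higher for 11 and lower for 1 (9 and 1 after centring), with a median of 1.90, where 42.8% of all genes were higher and 9.33% lower (18.4% and 22.1% after centring). Ctsd went from 639 ± 39.4 to 3969 ± 62.4 (SD, n = 3; log2 change 2.62, adjusted p = 1.9e-08). Psap went from 1226 ± 55.3 to 18642 ± 615 (log2 change 3.92, adjusted p = 1.7e-09). Nos2 went from 546 ± 48.1 to 11565 ± 692 (log2 change 4.38, adjusted p = 1e-08). Of 36 interferon genes, 18 were higher and 3 lower in Pol II, with a median of 0.95. After centring the numbers were 10 and 5 with a median of 0.07, so the lead of higher over lower calls narrowed with the scaling. Zbtb46 had H3K27ac listed at 0 at 18 h and a log2 change of Pol II of 0.92 (centred 0.04), which was not called.

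**Figure D5:**
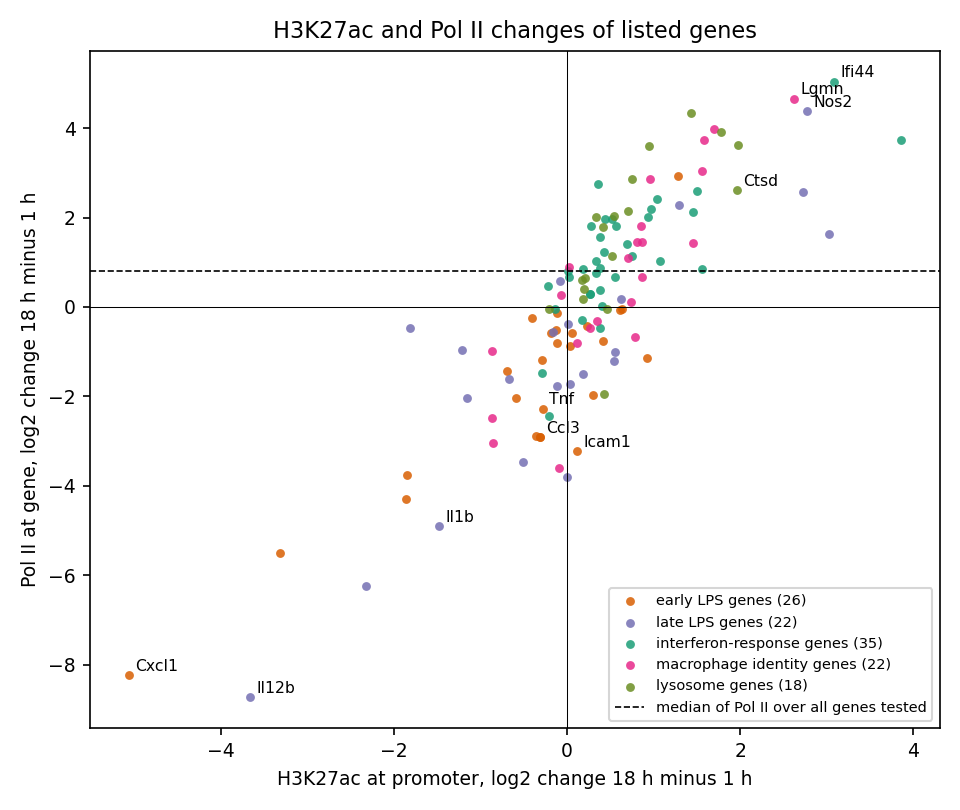
Log2 change from 1 to 18 h of LPS in H3K27ac at the promoter (x axis) and in Pol II at the gene (y axis) for 5 lists of genes in WT BMDMs, each from 3 libraries per time. The dashed line is the median Pol II change of all tested genes, 0.81; Tnf, Ccl3 and Icam1 lie near 0 on the x axis and well below 0 on the y axis, while Nos2, Lgmn and Ifi44 lie high on both.

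The same comparison in KO BMDMs used 6 other libraries, on the regions merged from the 6 WT libraries. Regions found only in KO could not enter, which raises the share of KO calls that were also called in WT. Of 44196 regions tested there, 9661 were called (21.9%), 4012 higher (9.08%) and 5649 lower (12.8%). Of the 8377 regions gained in WT, 8269 were tested in KO. There 3074 were called higher (36.7% of the 8377 WT regions and 76.6% of those called higher in KO) and 3 lower. Of the 8550 lost in WT, 7816 were tested in KO, of which 4298 were called lower (50.3% of the 8550 and 76.1% of those called lower in KO) and 1 higher. At gene promoters, 1048 of 11860 were called in KO (8.84%), 379 higher (3.2%) and 669 lower (5.64%). Of the 1005 and 1126 promoters called in WT, 998 and 1071 were tested in KO, and none of these was called in the opposite direction. Replicate 1 of KO at 1 h stood apart, with r of 0.909 and 0.917 to the other two KO libraries of its time but 0.978 to 0.980 to the WT libraries of 1 h. Replicates 2 and 3 of KO at 1 h had r of 0.891 to 0.906 to those WT libraries. At 18 h it was the other way: replicates 2 and 3 of KO had r of 0.977 to 0.980 to the WT libraries of 18 h, and replicate 1 had 0.909 to 0.913 to them and 0.917 to the other two. Replicates 2 and 3 of KO at 1 h were also closer to replicate 1 of KO at 18 h (r of 0.873 and 0.879) than to replicates 2 and 3 (0.817 to 0.827). Leaving out replicate 1 thus sets the KO libraries of 1 h least like WT against those of 18 h most like WT. Without replicate 1 at both times 2002 gene promoters were called in KO. Without replicate 2 the number was 124 and without replicate 3 it was 71, so a smaller number of calls in KO than in WT cannot be read as a smaller change.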

How the data were processed

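H3K27ac and Pol II ChIP-seq of mouse BMDMs was deposited as lists of enriched regions, one list per library. Per the methods and processing notes, the authors used Skewer for trimming, HISAT2 2.1.0 for alignment to mm10 and HOMER to drop duplicate reads, and searched each library alone for broad regions; per the file headers, windows of 500 bp at a Poisson p of 0.001 were stitched within 1000 bp, without the input as control. The deposited signal of a region is its tags per 10 M tags of the library. Whole tags could not be recovered, so no count test was run, and a deeper library can list weaker regions. Sums over regions move with how much was listed.

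Regions of the 6 libraries were merged on overlap, and 160 of 243445 listed regions on sequences other than the 21 chromosomes were left out. A promoter value is the share of each region's tags that lies in the window, so starts inside a broad region share values. Gene starts came from GENCODE vM21 (GRCm38), 21884 protein-coding genes. Features listed by 2 or more of the 3 libraries of either time were tested with limma 3.58.1 (R 4.3.3; intensity trend, 2 group means, no covariate) on log2(normalized tags + 10), which understates changes of low values, with Benjamini-Hochberg adjustment over all features tested. Errors are SD over 3 libraries or the SE of the fit, whose median was 0.09 for gene promoters. Where a time was listed at 0 in every library, no fold is given. Values per library were compared by exact permutation tests. data.table (1.17.8), Python 3.11.15, pandas 2.3.3, numpy 2.4.6, pysam 0.24.0 and matplotlib 3.10.9 were used, and the fit was tested on simulated data. Named were members of 20 gene lists, the 5 largest changes per direction and class among calls without overlap, and the 5 genes with the most called distal regions per direction. Motif letters were set after the data had been examined and counted at 2 lengths for NF-kB and the ISRE. The rule, lists and comparison were chosen with earlier results of these data known. A few genes are not reported here. Alternatives changed the pseudocount, scaling, filters, window, input overlap, density of regions, trend, libraries and replicate block.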

Additional observations from a re-analysis of the deposited data

Results flagged for a closer look

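The change from 1 to 18 h differed between KO and WT at 18 of 12029 gene promoters (0.15%) by an interaction term in limma (adjusted p under 0.05 and a difference over 1 on the log2 scale). At the Il6 promoter WT libraries went from 218, 232 and 220 normalized tags to 236, 221 and 231, and KO libraries from 160, 77 and 70.5 to 335, 388 and 319. The log2 change was 0.04 in WT and 1.75 in KO, a difference of 1.71 ± 0.31 (SE, adjusted p = 0.046). The difference was 2.07 without KO replicate 1 (adjusted p = 3.1e-06), 1.49 without replicate 2 (0.24), 1.57 without replicate 3 (0.22), 1.83 after centring (0.066) and 1.71 with the replicate number as a block (0.095), so its size held while the call was lost in the last 4. KO replicate 1 was the library most like WT at 1 h and the one least like WT at 18 h. The number of promoters with a difference was 1677 without replicate 1 and 0 without replicate 2, without replicate 3 or with the block. Nrp1 was among the 18, with a log2 change of 1.22 in WT and 0.08 in KO (difference -1.14 ± 0.20, adjusted p = 0.041; 2.8e-05, 0.22 and 0.26 without replicates 1, 2 and 3; 0.054 after centring and 0.12 with the block), and the difference stayed between -0.96 and -1.39 in these 5 settings. What sets the libraries numbered 1 apart was not tested.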

How the results depend on the processing

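The count of called features depended on the added constant and on which regions entered, and the cause was not tested beyond the number of features that each setting leaves. Adding 50 instead of 10 gave 6271 regions (1209 promoter, 5062 distal) and 963 gene promoters. Requiring all 6 libraries left 25751 regions with 7676 called (5967 distal), and a stricter density of tags 8445 (6513 distal). Without regions that overlap an input region, 3799 of 9545 regions were called, 564 promoter and 3235 distal, and 464 gene promoters, of which 24.4% were higher against 47.2% with all regions (27.5% against 47.8% of promoter regions). The adjusted p alone gave 29483 regions (7684 promoter, 21799 distal) and 7979 gene promoters. For the libraries, the difference in region number (18 h minus 1 h) turned to 354 at the stricter density, and that in the share of tags to -0.313 percentage points without input-overlapping regions, from 6.15 with all. The share of Pol II calls that were higher was 82.1%, 45.4% after centring and 53.3% after quantile normalization.

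Leaving out a library in turn gave 16861 to 17317 regions, 2411 to 2440 promoter regions, 14444 to 14877 distal regions, 2110 to 2144 gene promoters and 6650 to 6792 genes for Pol II. In KO it gave 71 to 2002 gene promoters and for the genotype difference 0 to 1677; the latter was 41 with 1 added, 7 after centring and 33 after quantile normalization. The deviations of same-numbered libraries from their group means correlated at 0.000547, 0.031 and 0.0462 in WT. In KO they correlated at -0.333, -0.293 and -0.280, and for Pol II at -0.0628, -0.0126 and 0.00798. These values cannot decide whether same-numbered libraries were paired, since a weak shared effect need not show in them. With the replicate block 17222 regions and 2136 gene promoters were called, so the block changed these counts little; in KO it gave 437 gene promoters and for the genotype difference 0. Of 1871 alternative values of 106 named promoters and regions, 1815 kept the side of the threshold, 56 lost the call and none reversed. Of the losses 22 came with 50 added, 15 in the window of 1000 bp and 7 after quantile normalization.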
